A study of Homo sapiens with 6 samples.

Results

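The type II keratin cluster, the type I keratin cluster and the epidermal differentiation complex were followed in Hi-C compartment tracks and domain lists of HCT116 and DKO1 cells. The 3 clusters were taken by position on the human build hg19, and the rule that takes them uses no PC1 value and no domain. The type II keratin cluster was the interval from 52.56 to 53.36 Mb of chromosome 12, with KRT8 and KRT18 between 53.28 and 53.36 Mb. The type I keratin cluster, with the keratin-associated proteins, lay from 38.80 to 39.80 Mb of chromosome 17, and the epidermal differentiation complex from 151.95 to 153.60 Mb of chromosome 1. They held 40, 50 and 83 bins of 20 kb, or 173 of the 140474 bins present in both tracks. The flanks of 500 kb on each side added 150 bins, which made 323 in all.

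HCT116 is an established human colorectal cancer cell line. DKO1 is the same line after knockout of the DNA methyltransferase genes DNMT1 and DNMT3B, and the labels give HCT116 as the cell line of all 6 libraries. The 3 libraries of each line carry the names of the same track and the same domain list, so each line has 1 pooled value per bin and 1 domain list. The values below therefore have no replicate error, the lines could not be tested against each other, and the depth is unknown.

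Keratins are the intermediate filament proteins of epithelia and pair as 1 type I and 1 type II chain. Simple epithelia such as the lining of the colon use KRT8 and KRT18, with KRT19 and KRT20, whereas the basal layer of the skin uses KRT5 and KRT14 and the layers above it KRT1 and KRT10. The epidermal differentiation complex encodes the proteins that build the cornified layer of the skin, and S100 genes, which encode small calcium-binding proteins, lie at both of its ends. The first principal component of a contact map, PC1, separates chromatin into compartment A, gene-rich and mostly active, and compartment B, mostly inactive. Here a bin with PC1 above 0 was called A and a bin below 0 was called B. PC1 was deposited scaled to a mean of 0 and an SD of 1 on each chromosome, so values are in SD units of their own chromosome. The files hold no expression values, so the labelled cell type could not be checked against markers, and the ends are described by their compartment, not as active or silent.

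The genes were ordered with the RefSeq gene table of build GRCh38.p14, a build other than that of the Hi-C files, and so were not placed in single bins. Promoter windows of 300 bases, from 250 bases before a gene's start to 50 after it, were taken from RefSeq on the same build, GRCh38.p14, which their coordinates refer to. They are shown because CpG dinucleotides, the sites of the DNA methylation that DNMT1 and DNMT3B place, were unevenly spread over the genes of the clusters. Each window is written 5′ to 3′ on the strand of its gene, with every CG in capitals. The epidermal differentiation complex is represented by S100A10, its first gene, by filaggrin (FLG) and involucrin (IVL) of its inside and by S100A6, the gene with the most CG among the S100 genes after LORICRIN, chosen as the exception there and not as typical. S100A10 (chr1:151993810-151994109, minus strand) encodes the partner of annexin A2, and FLG (chr1:152325190-152325489, minus strand) the protein that bundles keratin filaments in the outer epidermis. IVL (chr1:152908296-152908595, plus strand) encodes a precursor of the cornified envelope and S100A6 (chr1:153535942-153536241, minus strand) a calcium-binding protein of many cell types. KRT8 (chr12:52926420-52926719, minus strand) represents the simple epithelial end of the type II cluster and KRT10 (chr17:40822565-40822864, minus strand) the skin keratins of the type I cluster. The KRT8 window is that of its only listed start. Whether this is the main start of the gene was not checked, and KRT18 had no entry.
S100A10: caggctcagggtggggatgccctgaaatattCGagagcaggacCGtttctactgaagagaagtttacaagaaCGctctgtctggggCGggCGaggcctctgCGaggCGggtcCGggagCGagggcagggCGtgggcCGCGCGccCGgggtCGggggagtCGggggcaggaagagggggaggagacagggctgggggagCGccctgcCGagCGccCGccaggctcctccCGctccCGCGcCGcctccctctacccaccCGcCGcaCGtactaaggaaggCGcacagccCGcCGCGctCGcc
FLG: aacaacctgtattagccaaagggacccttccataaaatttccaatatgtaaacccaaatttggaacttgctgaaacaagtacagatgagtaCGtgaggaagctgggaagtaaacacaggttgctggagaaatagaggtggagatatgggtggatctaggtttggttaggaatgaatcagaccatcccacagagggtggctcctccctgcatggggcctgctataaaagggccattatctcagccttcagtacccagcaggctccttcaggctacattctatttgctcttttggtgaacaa
IVL: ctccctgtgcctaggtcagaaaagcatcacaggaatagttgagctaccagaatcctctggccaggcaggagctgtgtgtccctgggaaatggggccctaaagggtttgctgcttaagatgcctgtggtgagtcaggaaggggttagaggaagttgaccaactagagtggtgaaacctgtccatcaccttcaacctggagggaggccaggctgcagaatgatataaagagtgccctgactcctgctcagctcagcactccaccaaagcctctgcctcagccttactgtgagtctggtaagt
S100A6: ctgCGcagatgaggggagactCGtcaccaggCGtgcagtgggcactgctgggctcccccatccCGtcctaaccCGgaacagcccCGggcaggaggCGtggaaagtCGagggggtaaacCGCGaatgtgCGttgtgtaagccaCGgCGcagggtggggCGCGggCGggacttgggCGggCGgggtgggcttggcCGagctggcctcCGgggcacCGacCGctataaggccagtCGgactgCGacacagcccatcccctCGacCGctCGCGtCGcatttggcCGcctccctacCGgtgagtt
KRT8: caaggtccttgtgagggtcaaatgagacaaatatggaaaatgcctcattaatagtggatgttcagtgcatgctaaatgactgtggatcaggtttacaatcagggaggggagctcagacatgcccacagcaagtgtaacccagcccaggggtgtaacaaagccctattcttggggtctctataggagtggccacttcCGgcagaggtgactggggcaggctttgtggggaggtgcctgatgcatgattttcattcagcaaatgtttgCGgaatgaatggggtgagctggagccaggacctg
KRT10: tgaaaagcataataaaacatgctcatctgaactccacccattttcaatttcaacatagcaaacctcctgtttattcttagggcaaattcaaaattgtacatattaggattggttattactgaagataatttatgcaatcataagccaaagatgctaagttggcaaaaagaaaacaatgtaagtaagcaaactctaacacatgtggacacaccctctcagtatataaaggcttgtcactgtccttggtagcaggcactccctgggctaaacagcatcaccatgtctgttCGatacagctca

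The windows of S100A10 and S100A6 held 32 and 31 CG dinucleotides. Those of FLG, IVL, KRT8 and KRT10 held 1, 0, 2 and 1. The 15843 protein-coding genes with an entry had a median of 24 (range 0 to 69). Where a gene had several listed starts, the highest count was taken. The number of windows with a TATAAA element, searched as TATAAA on both strands, is given with each gene group.

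Most bins of the 3 clusters had the same compartment in both lines. In HCT116 110 of the 173 cluster bins (63.6%) were in A, against 53.8% of all shared bins. In DKO1 109 cluster bins (63.0%) were in A, against 48.6% of all shared bins. Switches from A in HCT116 to B in DKO1 took 4 cluster bins (2.31%), where 10.2% of all shared bins switched that way. Switches from B to A took 3 cluster bins (1.73%), where the share over all shared bins was 4.99%. All shared bins include those of the sex chromosomes. Of the 133051 autosomal bins 11869 switched from A to B and 5851 from B to A. The chromosomes of the clusters switched less than the genome. From A to B went 5.12% of the bins of chromosome 1, 5.40% of chromosome 12 and 4.38% of chromosome 17, and from B to A 4.01%, 4.34% and 1.19%. All 4 A to B bins lay in the complex, where 21 of the 83 bins were A in HCT116 and could switch that way. On chromosome 1 571 of 5324 A bins did so, a smaller share than in the complex, where the 4 bins are neighbours in a single run. From B to A went 2 of the 62 B bins of the complex (3.23%), against 7.66% of the B bins of chromosome 1. No flank bin switched, and none of the 7 switched cluster bins lay in the type II keratins. A PC1 higher in DKO1 by at least 1 SD unit was found in 0 cluster bins (4.37% of all shared bins) and a PC1 lower by as much in 0 (3.88% of all shared bins). On the autosomes 4303 of the 133051 bins were higher and 3421 lower by as much. Such bins were rare on these chromosomes too, with 1.21% higher and 1.16% lower on chromosome 1, 1.01% and 1.80% on chromosome 12, and 0% and 0.155% on chromosome 17.

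Smaller shifts had a direction that differed between the clusters. PC1 was higher in DKO1 in 68 of 83 bins of the epidermal differentiation complex and in 48 of 50 bins of the type I keratins, but in 7 of 40 bins of the type II keratins. The share of bins higher in DKO1 was 50.6% over all shared bins, 50.7% on chromosome 1, 58.9% on chromosome 17 and 51.1% on chromosome 12. The median absolute difference was 0.26 in the complex, 0.14 in the type I keratins and 0.17 in the type II keratins, against 0.31 over all shared bins. On their own chromosomes it was 0.25, 0.17 and 0.26 (chromosomes 1, 17 and 12), so the complex differed about as much as its chromosome and the keratins somewhat less. Neighbouring bins share contacts and are not independent, so these counts describe the tracks and are not replicates.

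**Figure D1:**
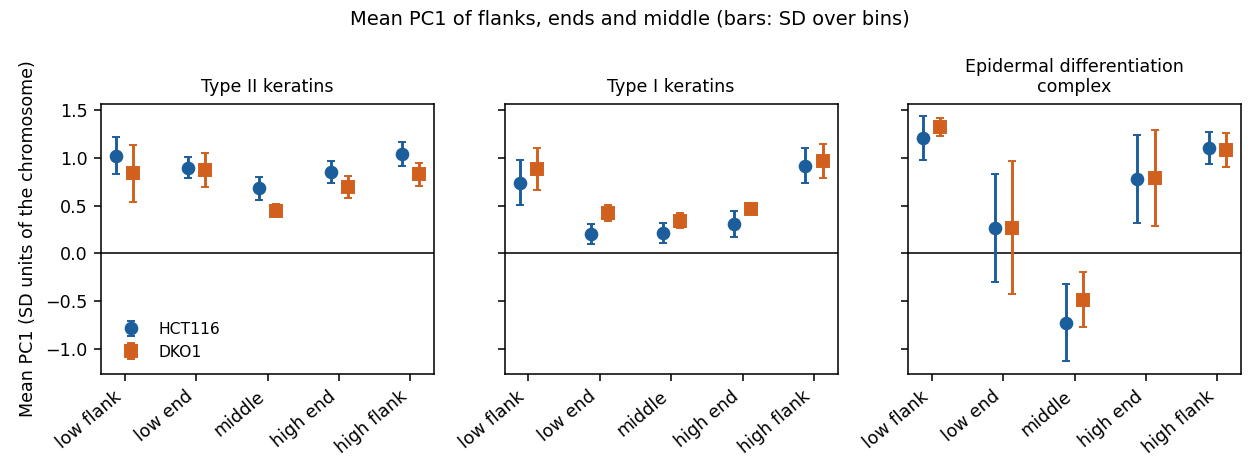
Mean PC1, in SD units of the chromosome, of the flanks (500 kb), ends (200 kb) and middle of each cluster in HCT116 (blue circles) and DKO1 (orange squares); bars are the SD over 20 kb bins, not a replicate error. The middle of the epidermal differentiation complex is below 0 in both lines (-0.73 and -0.48), and all parts of the keratin clusters are above 0, below both flanks except at the type II low end in DKO1 (0.88, flanks 0.84 and 0.83).

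The epidermal differentiation complex was a block of compartment B between strongly A flanks, with A at both ends. Over its 83 bins PC1 averaged -0.42 ± 0.70 in HCT116 (SD over bins; lowest -1.22, highest 1.31) and -0.24 ± 0.59 in DKO1 (lowest -0.88, highest 1.39). The low flank averaged 1.21 in HCT116 and 1.33 in DKO1, and the high flank 1.10 and 1.08. In HCT116 21 of the 83 bins were in A and in DKO1 19. The profiles of the lines had the same course, with a Pearson r of 0.94 across these neighbouring bins, a description of 2 tracks with no test.

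At the low end, where S100A10 and S100A11 are the first genes, the change from A to B was in the same place in both lines. PC1 in HCT116 was 1.03 in the bin at 151.96 Mb, 0.84 at 151.98, 0.55 at 152.00, 0.15 at 152.02 and -0.08 at 152.04 Mb. In DKO1 the same bins had 1.22, 0.95, 0.72, 0.39 and -0.12. The A stretch that entered from the flank thus ended at 152.04 Mb in both lines, 2420 kb after its start at 149.62 Mb. The first 200 kb of the complex averaged 0.27 ± 0.57 in HCT116 and 0.27 ± 0.70 in DKO1, with 5 of 10 bins in A in each line, and the first 100 kb was all in A. The mean difference of this end was 0.00 and its bins differed in sign, with DKO1 higher in the 5 A bins and lower in the 5 B bins, by 0.03 to 0.27. The edge was thus slightly steeper in DKO1, with a mean absolute step between neighbouring bins of 0.21 against 0.19 in HCT116.

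Inside, compartment B by the deposited zero extended without a break from 152.04 to 153.28 Mb in HCT116 (62 bins, mean -0.78). In DKO1 it did so from 152.04 to 153.24 Mb (60 bins, mean -0.54). In the gene order S100A11 is followed by the 7 S100-fused genes, trichohyalin-like 1 (TCHHL1), trichohyalin (TCHH), repetin (RPTN), hornerin (HRNR), FLG, FLG2 and cornulin (CRNN), whose products belong to the cornified layer or to hair. The late cornified envelope genes (LCE), IVL, the small proline-rich genes (SPRR) and loricrin (LORICRIN), which all encode cornified envelope proteins, follow. In the 60 bins that were B in both lines PC1 was nearer to 0 in DKO1 in 52 and farther from 0 in 8, and the mean was -0.80 in HCT116 and -0.54 in DKO1. Of the 62 bins below 0 in HCT116, 54 were higher in DKO1, with a median difference of 0.27. Over all 5833 bins of chromosome 1 below 0 in HCT116 the median difference was 0.02, with 3077 higher, and over the 64943 such bins of the genome it was 0.10. The rank of the complex differed in the same direction. Its median bin lay above 27.0% of the bins of chromosome 1 in HCT116 and above 41.8% in DKO1.

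The shift was uneven along the block. The lowest bin of HCT116, at 153.12 Mb, had a PC1 of -1.22 against -0.53 in DKO1, the largest positive difference in the complex at 0.69. The bin at 153.02 Mb was higher in DKO1 by 0.66, with -1.06 and -0.40. The lowest bin of DKO1 lay elsewhere, at 152.64 Mb, with -0.88 against -1.11 in HCT116. The middle of the complex (63 bins between the ends) was higher in DKO1 in 56 bins and averaged -0.73 ± 0.40 in HCT116 and -0.48 ± 0.29 in DKO1. Of the 8 B bins lower in DKO1 5 lay in the low end and the others followed at 152.14, 152.16 and 152.20 Mb.

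Towards the high limit the B block gave way to A in steps, and all 6 switched bins of the complex lay there. In HCT116 the sign changed once, at 153.28 Mb, and A then extended to 157.14 Mb. In DKO1 the sign changed at 153.24 Mb, a stretch of A of 100 kb followed (mean 0.21), then a stretch of B of 80 kb from 153.34 to 153.42 Mb (mean -0.18), and A from there to 157.14 Mb. The B to A run comprised 2 bins between 153.24 and 153.28 Mb, which averaged -0.15 in HCT116 and 0.17 in DKO1. The A to B run comprised 4 bins between 153.34 and 153.42 Mb, with 0.38, 0.27, 0.08 and 0.20 in HCT116 and -0.12, -0.29, -0.19 and -0.14 in DKO1. The differences at 153.36 Mb (-0.57) and 153.34 Mb (-0.49) were the most negative of the complex. The absolute PC1 of the 6 switched bins was at most 0.38 in HCT116 and 0.29 in DKO1, and no bin of the complex switched when PC1 had to reach 0.5 in both lines. With the median of the chromosome subtracted, 5 bins in place of 2 switched from B to A. Those at 152.44 and 152.46 Mb lay inside the B block, so the place of the switches depended on the zero of the score. The share of all bins switched on that scale was not computed.

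The last 200 kb of the complex averaged 0.78 ± 0.46 in HCT116 and 0.79 ± 0.51 in DKO1, with 10 and 9 of 10 bins in A. The difference of 0.01 turned to -0.10 over the last 300 kb, which takes in the A to B run. It held the highest bins of the complex, at 153.56 Mb in HCT116 (1.31) and at 153.58 Mb in DKO1 (1.39). In the gene order the complex ends with S100A9, S100A12, S100A8, S100A7A and S100A7, inflammatory or skin S100 genes, followed by S100A6 and 8 further S100 genes up to S100A1.

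**Figure D2:**
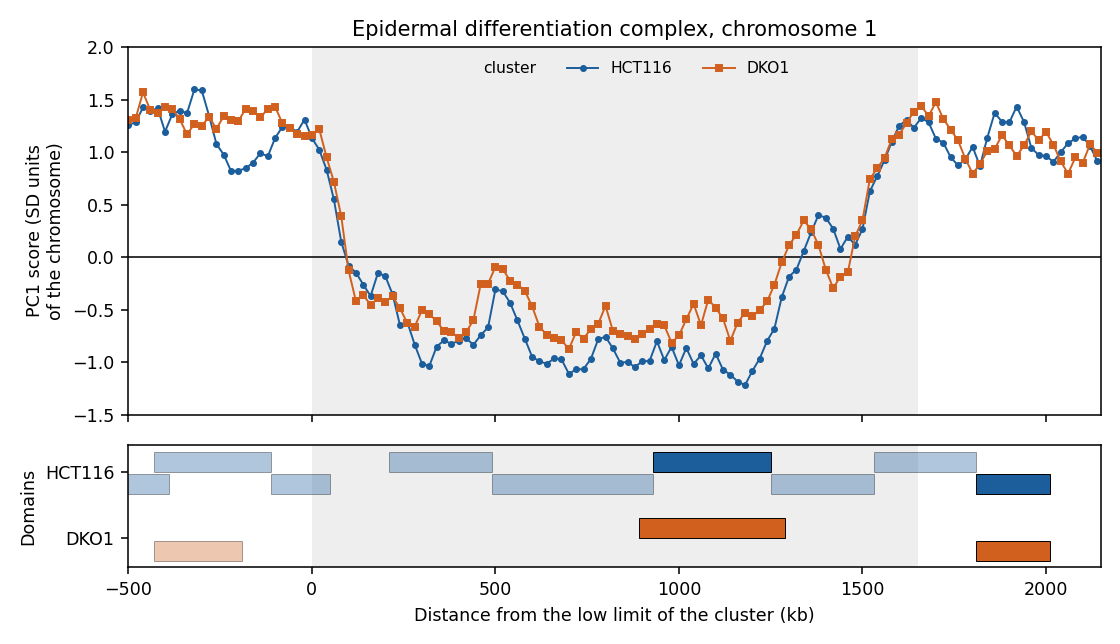
Upper panel, PC1 (SD units of the chromosome) of each 20 kb bin of the epidermal differentiation complex (grey) and its 500 kb flanks in HCT116 (blue circles) and DKO1 (orange squares) against distance in kb from the low limit; lower panel, the domains of each line, dark where matched in the other line and pale where not, set on 2 levels only for legibility. The block below 0 is shallower in DKO1, and the HCT116 list has 6 domains over the complex where the DKO1 list has 1.

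The domain lists had little in common over the complex. The whole DKO1 list was shorter, with 1823 domains against 4289 in HCT116. HCT116 had 6 domains over the complex, from 151.84 to 152.00, 152.16 to 152.44, 152.44 to 152.88, 152.88 to 153.20, 153.20 to 153.48 and 153.48 to 153.76 Mb. DKO1 had 1, from 152.84 to 153.24 Mb, which contained the HCT116 domain from 152.88 to 153.20 Mb and matched it at a reciprocal overlap of 80%, the least that counted, so 0 domains matched when 90% was asked for. The matched HCT116 domain had the lowest mean PC1 of the 6 in HCT116, -0.99, and -0.59 in DKO1. Gaps without a domain spanned 151.76 to 152.84 Mb (1080 kb) and 153.24 to 153.76 Mb (520 kb) in DKO1 and 152.00 to 152.16 Mb (160 kb) in HCT116. Domains covered 90.3% of the complex in HCT116 and 24.2% in DKO1.

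Over all shared bins 44.1% had their midpoint in an HCT116 domain and 18.5% in a DKO1 domain, so the complex was covered more than the rest of the genome in HCT116 and only slightly more in DKO1. Of the 13 HCT116 domains over the 3 clusters 5 (38.5%) were matched in DKO1, against 35.3% of the whole HCT116 list, and 1 of these 5 belonged to the complex. Of the 13 HCT116 boundaries inside the clusters 8 (61.5%) were found in DKO1 within 40 kb, against 44.7% of the whole list, and 2 of the 8 belonged to the complex. Those 2 lay 40 kb apart from their counterparts, so at a tolerance of 0 kb none of the complex was found. In the other direction 5 of 6 DKO1 domains (83.3%) were matched in HCT116, against 83.1% of the whole DKO1 list, and 7 of 7 DKO1 boundaries were found, against 91.9%. The counts of the clusters together were thus near the shares of the whole lists for domains. The 4 HCT116 boundaries of the complex that were not found lay at 152.00, 152.16, 152.44 and 153.48 Mb.

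The promoter windows of the complex were poor in CG apart from 4 S100 genes. Of the 63 genes of the complex 59 had an entry. S100A10 and S100A11, the first genes, had 32 and 22 CG dinucleotides. The 48 genes with an entry among the 52 between S100A11 and S100A6 had 0 to 6, with a median of 2, and none reached the median of all genes, 24. S100A6 had 31, and of the 8 genes after it S100A13, an S100 gene expressed in many tissues, had 19 and the others 5 to 8. The 14 S100 genes after LORICRIN thus had a median of 5, and S100A6 was the only one of them at or above the median of all genes. The groups of the inside were alike: the 7 S100-fused genes had a median of 1 (range 0 to 3), 18 LCE genes a median of 3 (1 to 6) and 9 SPRR genes a median of 2 (0 to 3). The inflammatory S100 genes between LORICRIN and S100A6 had 1 to 5, so low counts were not limited to genes of the cornified envelope. The 9 genes with an entry among the 10 before the complex had a median of 22, and the 9 among the 10 after it a median of 24.

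TATAAA was in 32 of the 59 windows of the complex (54.2%), against 12.4% of the genes with an entry. It was in 8 of 9 SPRR windows, 5 of 7 S100-fused windows and 9 of 18 LCE windows. It was in 0 of 9 windows on each side of the complex. For every gene with several listed starts, among them 8 cluster genes, the highest CG count was taken and TATAAA at any start was counted. The median of all genes and those of the neighbours follow this rule too, and for some neighbours the count depended on it. Before the complex, the highest and lowest counts were 25 and 1 for OAZ3, 30 and 0 for C2CD4D and 22 and 21 for TDRKH. A match describes these letters in this window and says nothing about a factor bound there. Whether the compartment of a gene follows its CG count was not tested, since genes could not be placed in bins.

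**Figure D3:**
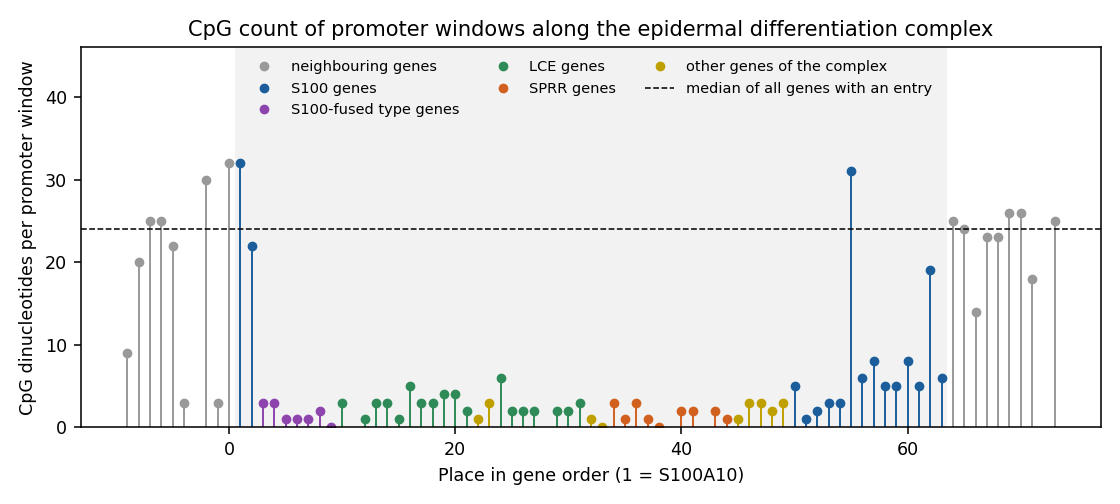
Number of CG dinucleotides in the 300-base promoter window of each gene of the epidermal differentiation complex (grey band) and of 10 genes on each side with an entry, in gene order (1 is S100A10), coloured by gene group; the dashed line is the median of all genes with an entry, 24. The 48 windows between S100A11 and S100A6 hold at most 6. Where a gene has several listed starts, the highest count is drawn.

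The type I keratin cluster was a shallow low of PC1 within compartment A, and PC1 in it was higher in DKO1. Its 50 bins averaged 0.23 ± 0.11 in HCT116 (SD over bins; lowest -0.04, highest 0.45) and 0.38 ± 0.09 in DKO1 (lowest 0.22, highest 0.56). The flanks were higher in both lines, with 0.74 and 0.92 on the low and high sides in HCT116 and 0.88 and 0.97 in DKO1. In A were 49 bins in HCT116 and 50 in DKO1. PC1 was higher in DKO1 in 48 of 50 bins, by 0.15 ± 0.11 on average. The low flank was higher by a like amount, 0.14, and the high flank by 0.05.

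These A calls depend on the zero of the score. The median PC1 of chromosome 17 was 0.33 in HCT116 and 0.26 in DKO1, so the HCT116 mean of the cluster lay below the median of its own chromosome. With the median of each chromosome subtracted, the cluster averaged -0.10 in HCT116 and 0.12 in DKO1. The share of bins in A was then 22.0% in HCT116, and 36 bins counted as switched from B to A. The share of all bins, or of chromosome 17, that switched on this scale was not computed, so the count of 36 has no background. The direction of the difference was the same on both scales, with DKO1 higher. By rank the median bin of the cluster lay above 46.7% of the bins of chromosome 17 in HCT116 and above 53.7% in DKO1.

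By the deposited zero both ends of the cluster were in A. The gene order starts with KRT222 and KRT24, followed by the hair root sheath keratins KRT25 to KRT28 and the skin keratin KRT10. The low end averaged 0.20 ± 0.10 in HCT116 and 0.42 ± 0.08 in DKO1. DKO1 was higher in all 10 of its bins, by 0.22 on average. The last genes in the order are KRT19, a keratin of simple epithelia, the palm and sole keratin KRT9, the basal skin keratin KRT14 and KRT16 and KRT17, which are induced in wounded skin. The high end averaged 0.31 ± 0.14 and 0.47 ± 0.05. Here too DKO1 was higher in 10 of 10 bins, by 0.17 on average. With the median of the chromosome subtracted, the low end averaged -0.13 in HCT116, with 20% of its bins in A, and the high end -0.029, with 60%. The middle of 600 kb averaged 0.22 ± 0.10 in HCT116 and 0.34 ± 0.08 in DKO1, higher in 28 of 30 bins. Between the first and last genes named, the order has KRT20, a keratin of the intestinal lining, and the 34 keratin-associated proteins, which build the matrix of hair. Hair keratins such as KRT31 and KRT35 lie there too. Which of these genes lie in the middle and which in an end was not determined.

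The largest positive differences were near the low limit. The bin at 38.88 Mb had 0.12 in HCT116 and 0.56 in DKO1, where it was the highest of the cluster, and the bin at 38.92 Mb had 0.03 and 0.43. The only bins lower in DKO1 were those at 39.24 Mb (0.31 in HCT116, 0.24 in DKO1) and at 39.26 Mb (0.42 and 0.31). The single switched bin, at 39.36 Mb, had -0.04 in HCT116 and 0.30 in DKO1, and it split the A stretch of HCT116 into one from 34.78 to 39.36 Mb and one from 39.38 to 41.38 Mb. In DKO1 A extended without a break from 34.78 to 44.40 Mb. The highest bin of HCT116 was at 39.74 Mb (0.45) and the lowest of DKO1 at 39.48 Mb (0.22).

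**Figure D4:**
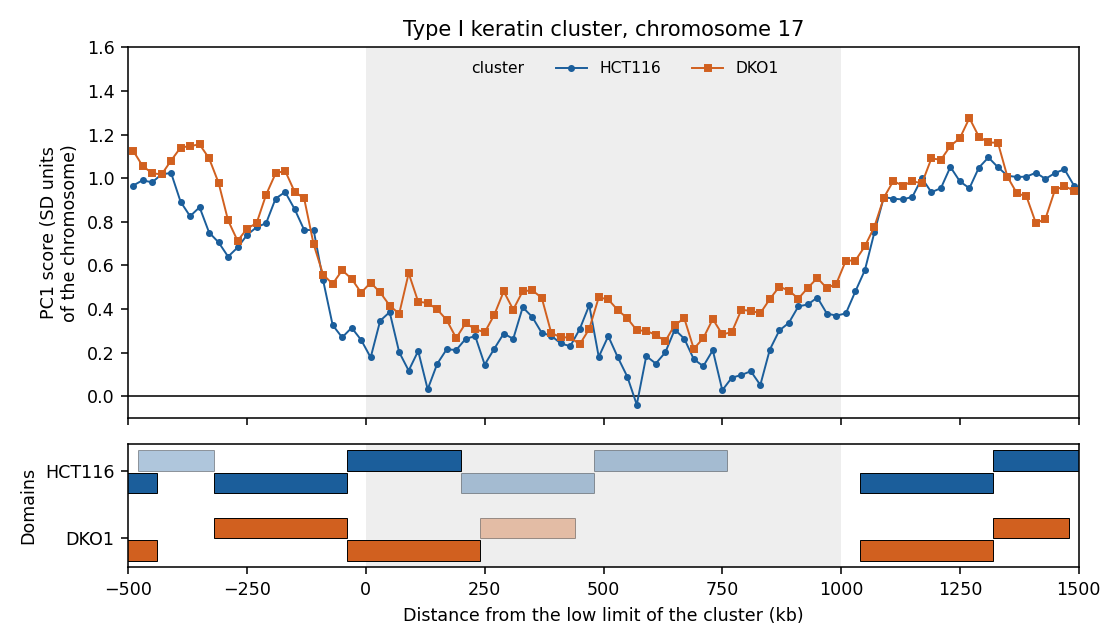
PC1 (SD units of the chromosome) of each 20 kb bin of the type I keratin cluster (grey) and its flanks in HCT116 (blue circles) and DKO1 (orange squares) against distance in kb from the low limit, with the domains of each line below (dark where matched in the other line, 2 levels for legibility). Both tracks drop between the flanks and the cluster, and DKO1 lies above HCT116 in 48 of 50 cluster bins.

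HCT116 had 3 domains over the type I cluster, from 38.76 to 39.00, 39.00 to 39.28 and 39.28 to 39.56 Mb. DKO1 had 2, from 38.76 to 39.04 and 39.04 to 39.24 Mb. The first of each list were matched, at 85.7%, and the second overlapped by 71.4%, below the limit of 80%. So 1 of 3 HCT116 domains was matched, against 35.3% of the whole HCT116 list. With a limit of 90% 0 were matched and with 50% 2. The third HCT116 domain had no counterpart, and its boundary at 39.56 Mb was the only one of 3 that was not found in DKO1. The other 2 of 3 were found, against 44.7% of the whole list, but were shifted by 40 kb, so 0 were found at a tolerance of 0 kb. From the last domain to 39.84 Mb both lists were empty, over 280 kb in HCT116 and 600 kb in DKO1, so the high end had no domain in either line. Domains covered 76.0% of the cluster in HCT116 and 44.0% in DKO1, where 44.1% and 18.5% of all shared bins had their midpoint in a domain. In the flanks the domains from 38.48 to 38.76 Mb and from 39.84 to 40.12 Mb had the same limits in both lists.

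The 53 of 62 genes of the type I cluster with a promoter entry had 0 to 11 CG dinucleotides (median 2), and TATAAA was in 44 (83.0%). All genes with an entry had a median of 24, and TATAAA was in 12.4% of them. The 8 genes with an entry among the 10 after the cluster had a median of 26 and TATAAA in 2 (25.0%). Among the 34 keratin-associated proteins 33 had an entry, with a median of 2 CG dinucleotides and TATAAA in 29 (87.9%). KRT20 and KRT10 had 2 and 1. For the type I keratins alone, with 20 of 28 entries (71.4%), the check is void because fewer than 80% had one. It is void as well for the 10 genes before the type I cluster, of which 7 had an entry (70.0%). In the type II cluster 14 of the 27 genes, which include KRT18, the partner of KRT8, had an entry (51.9%). The check is void there too, and only single genes are given.

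The type II keratin cluster was wholly in compartment A in both lines, and it was the one cluster with a lower PC1 in DKO1. Its 40 bins averaged 0.78 ± 0.15 in HCT116 (SD over bins; lowest 0.47, highest 1.06) and 0.62 ± 0.21 in DKO1 (lowest 0.34, highest 1.08). PC1 was lower in DKO1 in 33 bins and higher in 7, by -0.16 ± 0.18 on average. The flanks had a shift of like size, from 1.02 to 0.84 on the low side and from 1.04 to 0.83 on the high side, so the lower PC1 extended beyond the keratin genes. The cluster lay inside a single A stretch in each line, from 48.84 to 55.04 Mb in HCT116 and from 48.88 to 55.14 Mb in DKO1. Its median bin lay above 73.3% of the bins of chromosome 12 in HCT116 and above 69.9% in DKO1.

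The simple epithelial end was not set off from the others. In the 4 bins of KRT8 and KRT18, the keratin pair of simple epithelia, PC1 was 0.94, 0.90, 0.91 and 0.89 in HCT116 and 0.68, 0.73, 0.79 and 0.91 in DKO1. DKO1 was lower in 3 of the 4 bins, and the difference was smallest at the high limit, with -0.26 in the first bin and 0.02 in the last. The stretch averaged 0.91 ± 0.02 in HCT116 and 0.78 ± 0.10 in DKO1, while the other 36 bins of the cluster averaged 0.76 ± 0.15 and 0.60 ± 0.22. The ranges of the 4 and of the 36 bins overlapped in both lines. The whole last 200 kb averaged 0.85 ± 0.11 in HCT116 and 0.69 ± 0.11 in DKO1.

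The low end differed least between the lines. The gene order of the cluster starts with KRT80 and with KRT7, a keratin of simple ductal epithelia. KRT86, KRT81, KRT83, KRT85, KRT84 and KRT82 follow as genes 3 to 8. Which of these genes lie in the low end was not determined. The 10 bins of the low end averaged 0.90 ± 0.11 in HCT116 and 0.88 ± 0.18 in DKO1, a difference of -0.02 with 4 bins higher and 6 lower. It held the largest positive differences of the cluster, in the bins at 52.64 Mb (0.82 and 1.08) and at 52.62 Mb (0.88 and 1.05). The highest HCT116 bin, at 52.58 Mb, had 1.06 in HCT116 and 0.76 in DKO1. The middle, between 52.76 and 53.16 Mb, was the lowest part in both lines, with 0.68 ± 0.12 in HCT116 and 0.45 ± 0.07 in DKO1, and was lower in DKO1 in 19 of 20 bins. In the gene order the basal skin keratin KRT5 is the 13th of 27 genes and KRT1, of the layers above, the 19th. The most negative differences lay in the middle, at 53.00 Mb (0.84 and 0.34) and at 53.04 Mb (0.84 and 0.38), and the lowest HCT116 bin at 52.80 Mb (0.47) had nearly the same PC1 in DKO1 (0.45).

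**Figure D5:**
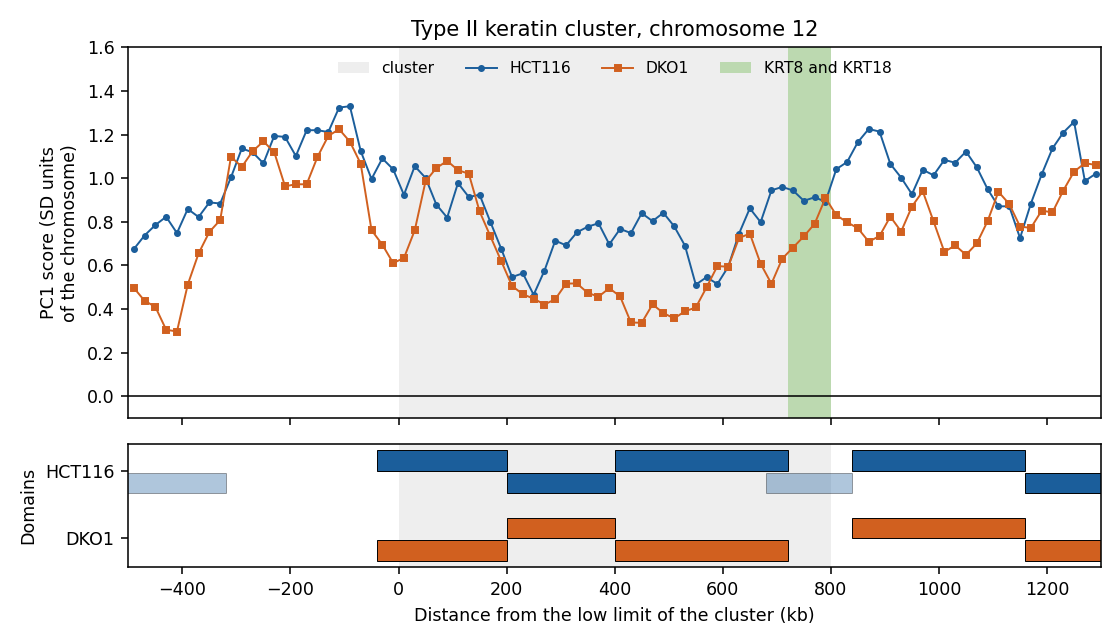
PC1 (SD units of the chromosome) of each 20 kb bin of the type II keratin cluster (grey, with KRT8 and KRT18 in green) and its flanks in HCT116 (blue circles) and DKO1 (orange squares) against distance in kb from the low limit, with the domains of each line below (dark where matched in the other line, 2 levels for legibility). All bins lie above 0, DKO1 is lower over the middle, and the pale HCT116 domain over KRT8 and KRT18 has no match in DKO1.

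Of the 3 clusters only the type II keratins had most of their HCT116 domains matched in DKO1. That was 3 of 4, against 35.3% of the whole HCT116 list. HCT116 had 4, from 52.52 to 52.76, 52.76 to 52.96, 52.96 to 53.28 and 53.24 to 53.40 Mb, the last overlapping its neighbour by 40 kb as deposited. The first 3 had the same limits in DKO1. The fourth, of 160 kb, covered KRT8 and KRT18 and was not in the DKO1 list, where its best overlap was 12.5%, and DKO1 had no domain from 53.28 to 53.40 Mb. PC1 averaged 0.96 over it in the HCT116 track and 0.74 in the DKO1 track. All 4 HCT116 boundaries inside the cluster were found in DKO1, against 44.7% of the whole list, and all 3 DKO1 boundaries in HCT116, against 91.9%. The HCT116 boundary at 53.24 Mb, the start of the missing domain, was found only through the DKO1 boundary at 53.28 Mb, and at a tolerance of 0 kb 3 of the 4 were found. Domains covered 100% of the cluster in HCT116 and 90% in DKO1, the highest coverage of the 3 clusters in DKO1. In the high flank the domains from 53.40 to 53.72 and from 53.72 to 53.92 Mb were also the same in both lists.

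The keratin clusters, which hold hair and skin keratins beside those of simple epithelia, were in A by the deposited sign in both lines apart from 1 bin of HCT116, whereas the inside of the epidermal differentiation complex was in B in both. In HCT116 the mean PC1 of the cluster was below that of both flanks in all 3 cases, by 1.63 and 1.53 in the complex, by 0.51 and 0.69 in the type I keratins and by 0.25 and 0.26 in the type II keratins (low and high flank). In DKO1 the same gaps were 1.57 and 1.32, 0.50 and 0.58, and 0.22 and 0.21. Each scale is that of its own chromosome, so the levels of the 3 clusters are not set against each other.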

How the data were processed

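Hi-C libraries of HCT116 and DKO1 (3 per line) were made with a commercial kit that uses a pair of restriction enzymes, per the labels' protocols. HOMER 4.6, HiC-Pro and hg19 (GRCh37) are named in the submitters' processing notes. The domain caller is not given in the sources used here. The authors deposited 1 PC1 score per 20 kb bin and line, scaled per chromosome, and 1 list of domain positions per line on a 40 kb grid. The 3 replicates carry identical file names within a line and were treated as a pool, and the labels do not say whether they were separate cultures. Contact maps were not used here.

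Shared bins were joined by chromosome and start, and a bin belonged to a region when its midpoint lay in it. Differences are DKO1 minus HCT116, and a difference of at least 1 was called. Ends are the first and last 200 kb. A boundary was found within 40 kb, and a match of domains needed 80% reciprocal overlap. Every domain, every same-sign stretch of at least 3 bins, every switched run and the extreme bins (the 2 largest differences in each direction, the highest and lowest PC1 per line) of a cluster are named. Genes named are those at cluster ends, the subfamilies and the keratins of simple and stratified epithelia. The members, lists and rules were chosen with earlier results of these data known. Gene order and promoter windows come from RefSeq on GRCh38.p14 and were not joined to hg19 bins; 126 of 152 cluster genes had a window. No test was run. Alternatives covered the zero of the score, smoothing, cluster limits, end widths, thresholds, boundary tolerance and domain overlap. The code was tested on the HCT116 track and domain list with known switches and domain changes planted in them. Python 3.11.15, numpy 2.4.6, pandas 2.3.3 and matplotlib 3.10.9 were used.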

Additional observations from a re-analysis of the deposited data

How the results depend on the processing

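No paired analysis was possible because each line has 1 pooled track and 1 domain list, and for the same reason no replicate could be left out. Of 674 values recomputed for 134 results, 586 kept their direction and stayed within a set limit, 74 moved by more and 14 changed sign. The limit was the SD over bins for means and a ratio of 1.5 for counts. For shares of bins in A it was a 95% Wilson confidence interval, which treats neighbouring bins as independent although they are not. All cluster mean differences kept their sign under every alternative run. Shares over all bins were not computed under the alternatives, so the counts of bins given there have no background. The cause of each change was not tested, except that moved limits and other end widths take in other bins.

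The zero of the score mattered most on chromosome 17. With chromosome medians subtracted, mean PC1 in the type I keratins was -0.10 (HCT116) and 0.12 (DKO1), at the low end -0.13 and 0.16, at the high end -0.029 and 0.21, in the low flank 0.41 and 0.62 and in the high flank 0.58 and 0.70. In HCT116 22% of the cluster, 20% of the low end, 60% of the high end and 84% of the low flank were then A, and B to A switches numbered 36 in the cluster and 4 in the low flank. The same centring gave the type II high end 0.98 and 0.83, the KRT8 and KRT18 stretch 1.04 and 0.92, the low end 1.02 (HCT116) and the high flank 0.97 (DKO1). In the epidermal differentiation complex it gave 5 B to A bins, a low flank of 1.47 (DKO1) and a high flank difference of 0.023.

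Smoothing over 5 bins put 100% of the type I keratins in A in HCT116, with 0 B to A bins, and gave 0.94 in the KRT8 and KRT18 stretch of HCT116 and a difference of -0.0090 at the low end of the complex. A minimum of 0.5 in both lines left 0 switches of either kind in the complex and 0 in the type I keratins. At a difference of 0.5, the complex had 6 bins higher and 1 lower and its low flank 1 higher, and 1 bin was lower in each of the type II cluster, low flank and high flank. How many of all bins reached 0.5 was not computed, so whether these counts are many or few is not known. A 10 Mb running mean subtracted from each track, chosen after seeing the data, gave differences of -0.10 at the high end and -0.075 at the low end of the complex and -0.0007 in the type I high flank.

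With limits moved in by 100 kb, the complex had at its low end -0.36 (HCT116) and -0.43 (DKO1), 0% A in each line and a difference of -0.069, at its high end 0.18 (DKO1) and a difference of -0.16, 15.1% and 12.3% A in all, 1.23 in the low flank (DKO1) and a high flank difference of 0.0082. The type I high end had 0.16 and 0.38, the type II low end 0.72 and 0.65 and its high end 0.70 and 0.54. With limits moved out, the low end of the complex had 0.98 and 1.07, with 100% A in each line and 100% at the high end in DKO1. The type I high end had 0.51 and 0.61, and the type II low and high ends 1.03 and 1.03 in HCT116. The type I keratins then counted 5 and 4 domains (HCT116, DKO1), 3 and 3 matched and 4 and 4 boundaries found, and the type II keratins 5 DKO1 boundaries found. Ends of 100 kb were 100% A in the complex at the low end in both lines and at the high end in DKO1, and ends of 300 kb gave a high end difference of -0.10.

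For domains, an overlap of 90% left 0 matched in the complex and 0 in the type I keratins in either line, and 50% gave 2 and 2 in the type I keratins. A tolerance of 0 kb left 0 boundaries found in the complex and 0 in the type I keratins, in both lists. Depth could not be weighed, since the files hold no counts.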
